A study of Mus musculus with 2 samples.

Results

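The 10 genes described here encode the precursors of neuropeptides found in sensory neurons: Calca, Calcb, Tac1, Adcyap1, Gal, Sst, Nppb, Npy, Vip and Penk. They were taken by gene symbol from the deposited expression values, where they account for 14 of 35034 RefSeq transcript rows and for 10 of 24411 genes. Expression had been measured by RNA-seq in neuron preparations from the thoracic and lumbar dorsal root ganglia (DRGs) of male C57BL/6 mice (C57BL/6J in the methods) that were 6 to 8 weeks old when obtained. There were 2 libraries, and each combined the DRG neurons of 10 mice. Mice of both groups received 50% alum, an aluminium adjuvant, by intraperitoneal injection on day 0 and day 14, and DRGs were collected 14 days after the booster. The alum-injected group received no antigen, whereas the alum + KLH-immunized group was also given KLH (keyhole limpet hemocyanin), a protein from a sea snail that served as the foreign antigen. The libraries are called the alum pool and the KLH pool below. The label of the control library calls it naïve as well as alum alone, and it is treated here as alum-injected. Ganglia were digested with collagenase and dispase, spun through albumin to enrich neurons and depleted of B lymphocytes with beads, so each library is a mixture of neuron classes with remaining glia.

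Neuropeptides are cut from longer precursors inside dense-core vesicles. Prohormone convertases cleave the precursor at paired basic residues, carboxypeptidase E trims the exposed basic residues, and a glycine left at the end is turned into a C-terminal amide by the enzyme PAM. The peptides are released from both the central and the peripheral endings of sensory neurons. Peripherally released calcitonin gene-related peptide (CGRP) widens blood vessels, and substance P makes them leaky, which is known as neurogenic inflammation. Galanin, neuropeptide Y and vasoactive intestinal peptide are known for their low expression in intact DRG and their induction after axon injury, while natriuretic peptide B and somatostatin mark a class of itch-related neurons.

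The values are TPM, a measure of transcript abundance that is corrected for transcript length and adds up to 1000000 in each library, so that levels of different genes can be compared. Each library was sequenced to at least 60000000 reads, in pairs. TPM keeps no read number per gene, so no counting interval was computed. After the TPM of its transcripts had been summed, a gene counted as detected if it exceeded 3 TPM. With 1 library per group there are no replicates, no value has an error between mice, and no test of immunization was possible. In pooled tissue, fewer cells of a type and less RNA per cell cannot be told apart.

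The sequences at the 3′ end of the CGRP genes are given first, because the Calca transcripts differ there. Calca lies on the minus strand of chromosome 7 (114631478 to 114636357 of GRCm38) and Calcb on the plus strand of the same chromosome (114718643 to 114723365). Calca is the textbook case of alternative RNA processing, in which the shared 5′ exons are joined either to an exon that encodes calcitonin or to one that encodes α-CGRP. In the GENCODE M21 annotation the 2 Calca precursors had the same first 76 residues. The coding part of the α-CGRP exon (chr7:114632443-114632599, minus strand), of the calcitonin exon (chr7:114633605-114633785, minus strand) and of the corresponding β-CGRP exon of Calcb (chr7:114721975-114722134, plus strand) read as follows, 5′ to 3′, with capitals for the codons of the peptide between the basic cleavage site and the glycine that donates the amide.
Calca, α-CGRP exon: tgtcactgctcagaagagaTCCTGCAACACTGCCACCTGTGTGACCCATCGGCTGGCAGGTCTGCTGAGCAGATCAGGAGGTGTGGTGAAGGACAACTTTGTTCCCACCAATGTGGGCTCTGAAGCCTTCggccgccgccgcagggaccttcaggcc
Calca, calcitonin exon: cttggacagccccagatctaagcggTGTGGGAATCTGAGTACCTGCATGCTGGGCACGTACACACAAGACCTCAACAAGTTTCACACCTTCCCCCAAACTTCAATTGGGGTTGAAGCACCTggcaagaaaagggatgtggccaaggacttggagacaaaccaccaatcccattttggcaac
Calcb, β-CGRP exon: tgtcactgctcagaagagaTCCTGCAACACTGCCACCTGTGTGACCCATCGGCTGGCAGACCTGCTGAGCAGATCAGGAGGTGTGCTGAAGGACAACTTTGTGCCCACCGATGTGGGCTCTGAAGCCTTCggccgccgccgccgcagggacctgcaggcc

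The capitals span 37 codons for α-CGRP and β-CGRP and 32 codons for calcitonin. The CGRP stretches of Calca and Calcb matched at 106 of 111 bases and at 34 of 37 residues. Reads from this exon can therefore fit both genes. Of the 31-base words that kallisto by default uses to place reads, 33 of 964 in the α-CGRP transcript (3.42%) also occurred in Calcb. In the Calcb transcript, 32 of 932 (3.43%) also occurred in Calca.

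Tac1, which encodes substance P and neurokinin A, lies on the plus strand of chromosome 6 (7554879 to 7565834 of GRCm38). The 2 peptides are shown because they share the ending by which tachykinins are recognised. The coding bases leading up to each amide site are printed 5′ to 3′, with capitals for the common ending of phenylalanine, any residue, glycine, leucine and methionine. The substance P stretch lies at chr6:7556732-7556773, and the neurokinin A stretch is joined from 2 exons between 7557743 and 7559139.
Tac1, substance P: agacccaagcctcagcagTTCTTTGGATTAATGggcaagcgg
Tac1, neurokinin A: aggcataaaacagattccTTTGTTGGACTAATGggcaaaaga

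Processing signals were then counted in the translated coding sequences of all 10 genes. The precursors ranged from 97 residues for Npy to 268 residues for Penk, and each held at least 1 pair of adjacent basic residues. Penk, the precursor of several enkephalins, had the most with 12 pairs, and Sst and Nppb had 1 each. A glycine directly before a basic pair, the signal for amidation, was present in 7 of the 10 genes. It occurred 2 times in Tac1, Adcyap1 and Vip and 1 time in Calca, Calcb, Gal and Npy. Sst, Nppb and Penk had none.

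The 10 genes spanned more than 4 orders of magnitude on the TPM scale. Of the 10, 7 were above 3 TPM in the alum pool and the same 7 in the KLH pool. Together the 10 genes made up 0.81% of all TPM in the alum pool and 0.77% in the KLH pool. Calca contributed 76.3% and 74.8% of these sums. Calca, Tac1, Calcb and Adcyap1, the precursors of peptides carried by peptidergic nociceptors, together contributed 99.2% and 99.4%. The order of the 7 detected genes was the same in both pools.

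**Figure D1:**
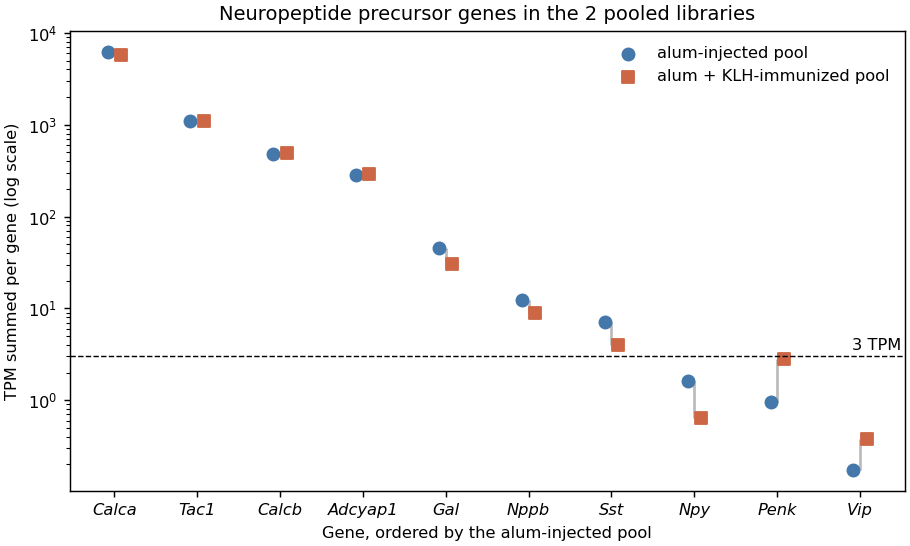
TPM summed per gene (log scale) for the 10 neuropeptide precursor genes in the alum pool (blue circles) and the KLH pool (orange squares), with 1 library per point and a dashed line at the detection threshold of 3 TPM. Calca, Tac1, Calcb and Adcyap1 lie between 281.5 and 6177 TPM with nearly overlapping points, and Npy, Penk and Vip lie below the line in both pools.

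CGRP genes. Calca was at 6177 TPM in the alum pool and at 5729 TPM in the KLH pool. It was the third most abundant of all genes in both libraries. Calcb, whose product β-CGRP acts on the same receptor, was at 479.6 and 489.9 TPM. Calca therefore exceeded Calcb 12.9-fold in the alum pool and 11.7-fold in the KLH pool. To compare the pools, a log2 ratio was formed with (TPM + 1) of the KLH pool over (TPM + 1) of the alum pool, so that ratios of genes with little TPM are pulled towards 0. The log2 ratio was -0.11 for Calca and 0.03 for Calcb. Both were smaller than the SD of this ratio over the 500 genes closest in abundance, which was 0.16 for each. That SD describes the same pair of libraries and is no measure of error between mice.

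The signal of Calca was almost entirely on CGRP-type rows. Of its 4 RefSeq rows, NM_001033954 was at 6055 and 5671 TPM, or 98.0% and 99.0% of the gene. NM_001289444 is paired by GENCODE with the same α-CGRP transcript and was at 116.8 TPM in the alum pool and 53.1 TPM in the KLH pool. Its share of the gene was 1.89% and 0.93%. The rows NM_007587 and NM_001305616 are paired with the calcitonin transcript. NM_007587 was at 5.35 and 4.38 TPM, and NM_001305616 at 0.061 and 0.019 TPM. Summed by product, the α-CGRP rows reached 6172 and 5724 TPM and the calcitonin rows 5.41 and 4.40 TPM. The calcitonin share was thus 0.088% of Calca in the alum pool and 0.077% in the KLH pool. Both products were listed above 3 TPM in each pool. Of the 31-base words of the calcitonin transcript, however, 307 of 800 (38.4%) also occurred in the far more abundant α-CGRP transcript. Whether the calcitonin values rest on reads from the calcitonin exon was not tested.

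**Figure D2:**
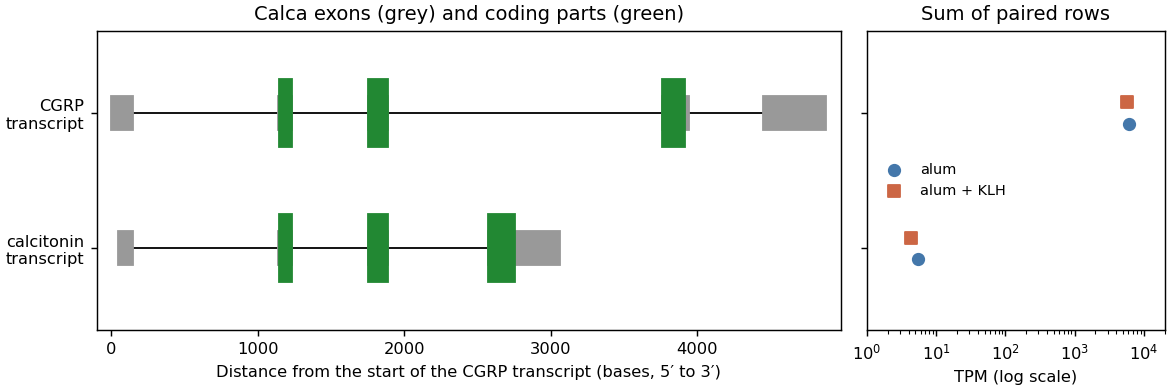
Left, exons (grey) and coding parts (green) of the α-CGRP and the calcitonin transcript of Calca, plotted as distance in bases from the start of the α-CGRP transcript. Right, TPM (log scale) of the RefSeq rows paired with each transcript in the alum pool (blue circles) and the KLH pool (orange squares), with 1 library per point, at 6172 and 5724 TPM for α-CGRP and 5.41 and 4.40 TPM for calcitonin.

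Of the 14 rows of these genes, 9 were above 3 TPM in either pool, and 1 of the 9 differed at least 2-fold. It was NM_001289444, with 2.20-fold more TPM in the alum pool and a log2 ratio of -1.12. Among all 14215 rows above 3 TPM in either pool, 4.65% differed that much. For the 500 rows closest in abundance the SD of the log2 ratio was 0.17, and 0.2% of them were at least as far apart. The 2 α-CGRP rows are paired with a single annotated transcript, so where they differ in sequence was not analysed here. kallisto divides reads between such rows, and their sum had a log2 ratio of -0.11.

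Tachykinin gene. Tac1 was the second of the 10 genes, at 1090.1 TPM in the alum pool and 1096.6 TPM in the KLH pool, on its single row. The level was 5.67 times lower than that of Calca in the first pool and 5.22 times lower in the second. Its log2 ratio between the pools was 0.01, beside an SD of 0.16 among genes of like abundance, and 93.6% of those 500 genes were at least as far apart.

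PACAP and VIP genes. Adcyap1 encodes pituitary adenylate cyclase-activating polypeptide (PACAP), and Vip encodes its relative vasoactive intestinal peptide, which shares receptors with it. Adcyap1 (chromosome 17, 93199017 to 93206537) was at 281.5 TPM in the alum pool and 291.4 TPM in the KLH pool, with a log2 ratio of 0.05 beside an SD of 0.19. It ranked within the top 3% of genes in both libraries. Vip (chromosome 10, 5639218 to 5647617) was at 0.17 and 0.37 TPM. It was the lowest of the 10 genes in both pools and was below the detection threshold.

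Galanin and neuropeptide Y genes. Gal (chromosome 19, 3409915 to 3414544, minus strand) was at 45.6 TPM in the alum pool and 30.7 TPM in the KLH pool, a 1.48-fold difference. Its log2 ratio of -0.55 exceeded the SD of 0.14 among the 500 genes closest in abundance, of which 0.6% were at least as far apart. Npy (chromosome 6, 49822710 to 49829507) was at 1.63 and 0.65 TPM, below the threshold in both pools. Galanin is among the peptides induced by axon injury, so genes of that response were read from the same libraries. Of 9 such genes, 7 passed 3 TPM in each pool and had a median log2 ratio of -0.06, with 2 higher and 5 lower in the KLH pool, and their summed level was 1047 and 984.2 TPM. The highest were Gap43, a growth cone protein, at 456.5 and 441.9 TPM, Atf3, a transcription factor, at 238.0 and 219.1 TPM, and Gadd45a, a stress-response gene, at 159.6 and 153.3 TPM. Beyond the SD were 3 of the 7, namely Jun at -0.30 and Csf1 at -0.31, both lower in the KLH pool, and Sox11 at 0.22, beside 17.0% of all genes. The part of these genes in the level of Gal was not tested.

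Itch-related peptide genes. Nppb, which encodes natriuretic peptide B, has 2 rows. NM_008726 held all of its signal, at 12.4 TPM in the alum pool and 8.95 TPM in the KLH pool, while NM_001287348 was listed at 0 in both. The log2 ratio of -0.43 exceeded the SD of 0.35, and 4.6% of the 500 closest genes were at least as far apart. With the 200 closest genes instead, Nppb no longer exceeded the SD. Sst (chromosome 16, 23889573 to 23890958, minus strand), which encodes somatostatin, an inhibitory peptide, was at 7.06 and 3.99 TPM, the lowest of the detected genes. Its log2 ratio was -0.69 beside an SD of 0.23, and 1.2% of the 500 closest genes were at least as far apart. Neurons with Nppb and Sst also carry neurotensin and the receptors for interleukin 31 and oncostatin M. The neurotensin gene Nts was at 44.5 and 32.6 TPM, Il31ra at 22.0 and 18.1 TPM and Osmr at 99.9 and 88.9 TPM. All 3 of these were lower in the KLH pool, with log2 ratios of -0.44, -0.27 and -0.17, and each ratio was larger than its SD of 0.13, 0.18 and 0.14. In the list of 9 nociceptor and itch-related genes that holds them, 7 were lower and 2 higher in the KLH pool, with a median log2 ratio of -0.17. Mrgprd in that list was also lower beyond its SD, at -0.28 beside 0.12. Of 7 pan-neuronal genes, 5 were lower and 2 higher in the KLH pool. Those beyond the SD were Rbfox3 at -0.44 beside 0.13, Prph at -0.27 beside 0.18 and, in the other direction, Elavl4 at 0.19 beside 0.16. Of all genes above 3 TPM in either pool, 56.4% were lower in the KLH pool, and 11.0% were lower beyond the SD. Whether the pools differed in the share of neurons with Nppb and Sst was not tested.

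Opioid peptide gene. Penk (chromosome 4, 4133531 to 4138819, minus strand) was at 0.95 TPM in the alum pool and 2.78 TPM in the KLH pool, just under the threshold in the latter. The 2.93-fold difference became a log2 ratio of 0.95 after 1 TPM had been added. Both values were below 3 TPM. Proenkephalin is also made by connective tissue cells, and 3 of 6 fibroblast genes passed 3 TPM in each pool, at a summed level of 88.1 and 88.4 TPM and Dcn highest at 63.8 and 62.6 TPM. Of the 31-base words of the Penk transcript, 127 of 1419 (8.95%) also occurred in transcripts of A830012C17Rik, which was not analysed here.

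In the order of levels, each of the first 6 steps from Calca down to Sst was larger in both pools than the larger SD of the genes on either side. That SD describes ratios between the pools and not the error of comparing different genes within a pool. It serves here only as a scale and does not test the order. The smallest of these steps was from Nppb to Sst in the alum pool, at 0.73 on the log2 scale beside an SD of 0.35. Below Sst the order differed between the pools, with Npy above Penk in the alum pool and Penk above Npy in the KLH pool. Penk exceeded Npy by 1.20 on the log2 scale in the KLH pool, beyond an SD of 0.90, whereas Npy and Penk were 0.43 apart in the alum pool within the same SD, which came from the 500 closest of all genes because neither passed the threshold. Sst and Penk were 0.40 apart in the KLH pool beside the same SD.

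Across the 7 genes above the threshold, 3 had positive and 4 negative log2 ratios, with a median of -0.11 beside -0.02 over all 11648 genes above 3 TPM in either pool. None of the 7 was at least 2-fold apart, as were 1.64% of all genes. Gal, Nppb and Sst exceeded the SD of genes of like abundance, which is 3 of 7, all lower in the KLH pool. Among all genes 17.0% exceeded that SD, and 11.0% did so with the lower value in the KLH pool. Set beside the 500 closest transcript rows instead of genes, the SD was 0.20 for Gal, 0.35 for Nppb and 0.38 for Sst. Of those rows, 2.8%, 15% and 5.6% were at least as far apart, a larger share than among genes. The 4 most abundant genes had log2 ratios from -0.11 to 0.05. The positive ratios of Calcb, Tac1 and Adcyap1 turned to -0.05, -0.08 and -0.04 when TPM was taken relative to Hprt, the reference gene of the study's qPCR, while the 4 negative ratios stayed negative. Gal exceeded Nppb 3.68-fold in the alum pool and 3.43-fold in the KLH pool, whereas Adcyap1 exceeded Gal 6.18-fold in the first and 9.49-fold in the second.

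**Figure D3:**
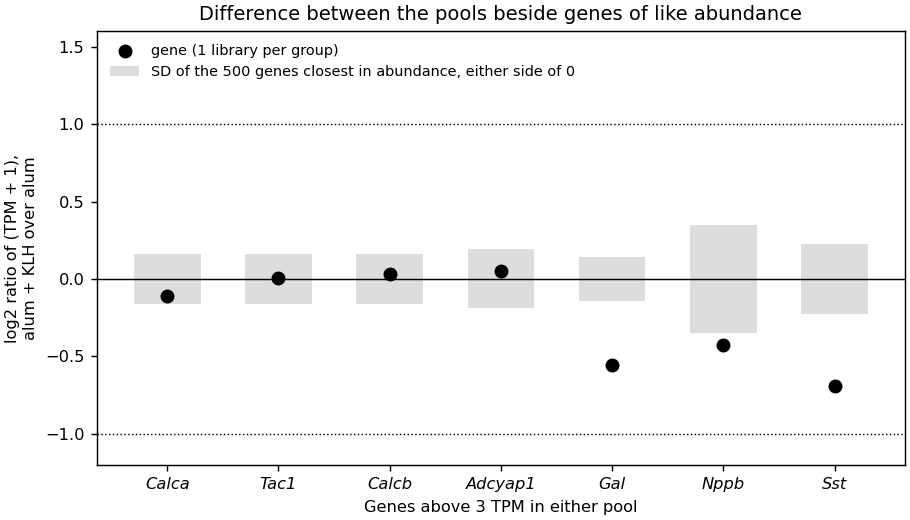
Log2 ratio of (TPM + 1), KLH pool over alum pool, for the 7 genes above 3 TPM (points, 1 library per group), with grey bars reaching 1 SD of the 500 genes closest in abundance on either side of 0 and dotted lines at a 2-fold difference. Calca, Tac1, Calcb and Adcyap1 lie within the bars, and Gal at -0.55, Nppb at -0.43 and Sst at -0.69 lie below them without reaching 2-fold.

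Other neuropeptide precursors were read from a list of 54 genes. Of these, 5 were above 3 TPM in both pools, 6 in at least 1 pool, and 20 were listed at 0 in both. Their median was 0.15 TPM in the alum pool and 0.23 TPM in the KLH pool. The highest was Nmb, which encodes neuromedin B, an itch-related peptide, at 231.9 and 181.7 TPM, between Adcyap1 and Gal. Cartpt, the precursor of CART peptides, was at 42.9 and 44.7 TPM, below Nts in the alum pool and above it in the KLH pool. The largest ratio belonged to Uts2b, which encodes urotensin 2B, at 5.89 and 18.4 TPM with a log2 ratio of 1.49, and it was the 1 of these 6 genes that differed at least 2-fold. The smallest ratio was the -0.44 of Nts. The median log2 ratio of the 6 genes was -0.0012, with 3 higher and 3 lower, and 3 exceeded the SD of genes of like abundance (Nts and Nmb lower, Uts2b higher in the KLH pool). Over all genes above 3 TPM in either pool, 17.0% exceeded that SD and 1.64% were at least 2-fold apart.

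Genes for peptide processing ranged from 0 TPM to above Tac1. The median of 16 such genes was 8.47 TPM in the alum pool and 9.33 TPM in the KLH pool. Of the 16, 11 were above 3 TPM in at least 1 pool, of which 8 had positive and 3 negative log2 ratios, with a median of 0.08. None was 2-fold apart, and none exceeded the SD of genes of like abundance. Cpe, carboxypeptidase E, was highest at 1609 and 1703 TPM, followed by the protease gene Ctsl at 1101 and 1002 TPM and by Scg5, a chaperone of prohormone convertase 2, at 236.1 and 236.5 TPM. The convertase genes Pcsk1 and Pcsk2 were at 153.3 and 169.0 TPM and at 160.3 and 169.4 TPM. Pam, the amidating enzyme, was at 141.2 TPM in both pools. Qpct, which closes the N-terminal ring of some peptides, had the largest ratio at 0.18, and Ctsl the smallest at -0.14.

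Of 17 dense-core vesicle genes, 16 passed 3 TPM in each pool, with 5 positive and 11 negative log2 ratios and a median of -0.11. The highest were the granins Scg3, at 1850.3 and 1655 TPM, and Scg2, at 562.5 and 525.1 TPM, with the vesicle protein gene Syt4, at 747.1 and 760.3 TPM, between them. None was 2-fold apart, and 4 of the 16 exceeded the SD of genes of like abundance, each lower in the KLH pool (Chga, Vgf, Ptprn and Syt7), beside the 11.0% of all genes that were lower beyond the SD. Of these, Vgf, a granin-like precursor, was furthest at 17.3 and 11.5 TPM, a log2 ratio of -0.56 beside an SD of 0.24. Slc18a2, the vesicular monoamine transporter, had the largest ratio at 0.07. Dbh, which makes noradrenaline in vesicles of sympathetic neurons, was listed at 0 in both pools.

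**Figure D4:**
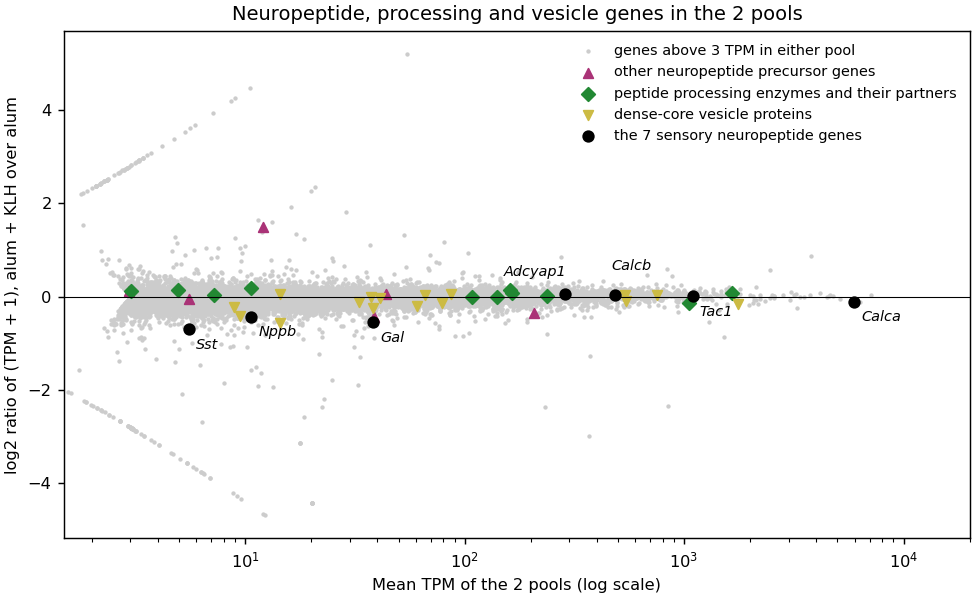
Log2 ratio of (TPM + 1), KLH pool over alum pool, against the mean TPM of the 2 pools (log scale) for all 11648 genes above 3 TPM in either pool (grey), the 7 sensory neuropeptide genes (black), and the detected genes of the lists of other neuropeptide precursors (purple), processing enzymes (green) and dense-core vesicle proteins (yellow). The grey diagonals are genes near 0 TPM in 1 pool. The black points lie between -0.69 and 0.05, and the purple point at 1.49 is Uts2b.

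Markers described which cells the libraries held. The 7 pan-neuronal genes all passed 3 TPM in each pool, led by Snap25, Stmn2 and Uchl1, and all 9 genes of nociceptors and of itch-related and cold-sensing neurons were too, with a summed level of 1014 and 906.5 TPM. The 5 large-fibre genes summed to 1421 and 1564 TPM, with 3 higher and 2 lower in the KLH pool. Spp1 was higher there, with 196.1 and 352.4 TPM and a log2 ratio of 0.84 beyond its SD of 0.19. Pvalb was too, with 80.4 and 114.3 TPM and a log2 ratio of 0.50 beyond its SD of 0.14. Nefh was at 1021 and 973.5 TPM. The part of these neurons in the ratios of Gal, Nppb and Sst was not tested. Schwann cell genes summed to 1488 and 1420 TPM with 4 of 6 above the threshold, and 5 satellite glia genes, all above it, to 1460 and 1344 TPM. Among genes of sympathetic neurons, which are a source of neuropeptide Y, Th was at 16.6 and 14.4 TPM and Dbh was listed at 0 in both pools. No gene of 7 for macrophages and of 5 for lymphocytes reached 3 TPM, with summed levels of 6.24 and 5.65 TPM and of 1.56 and 0.74 TPM. Endothelial genes summed to 10.2 and 7.24 TPM, with 1 of 5 above the threshold. Among genes above 3 TPM, 3 of 7 pan-neuronal and 4 of 9 nociceptor and itch-related genes exceeded the SD of genes of like abundance. So did 2 of 5 large-fibre, 2 of 4 Schwann cell and 1 of 5 satellite glia genes, beside 17.0% of all genes.

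The promoters were searched for the cAMP response element, the site of the factor CREB, because several of these genes are textbook targets of cAMP signalling. RefSeq windows of GRCm38.p6 that run from 250 bases before to 50 bases after a start site were on hand for 8 genes, and Calcb and Penk had no entry. The full palindrome TGACGTCA occurred in 1 of the 8 genes, Sst, and in 1.79% of all 32851 windows. Its first 7 letters, TGACGTC, on either strand, occurred in 3 of the 8, Sst, Vip and Adcyap1, and in 3.21% of all windows. The core TGACG, which the longer forms contain, occurred in 6 of the 8 on either strand and in 20.8% of all windows. These are matches of letters and not measured binding. The 3 genes with the longer match are printed 5′ to 3′ with the match in capitals, at chr16:23890873-23890904 (minus strand), chr10:5639127-5639158 (plus strand) and chr17:93198914-93198945 (plus strand).
Sst, at -48 from the start site: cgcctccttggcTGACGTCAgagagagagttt
Vip, at -79: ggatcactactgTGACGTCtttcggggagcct
Adcyap1, at -91 from the first listed start site: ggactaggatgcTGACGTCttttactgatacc

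The genes that carry these matches were not alike in level, since Adcyap1 was at 281.5 and 291.4 TPM, Sst at 7.06 and 3.99 TPM and Vip at 0.17 and 0.37 TPM.

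For each detected gene the gene closest to it in both pools was identified by distance on the log2(TPM + 1) scale over the 2 libraries. It was Tmsb4x for Calca (6619 and 6086 TPM, distance 0.13), Cox5a for Tac1 (distance 0.05), Gcnt2 for Calcb (distance 0.02) and Sdha for Adcyap1 (distance 0.0094). For the less abundant genes it was 1110008P14Rik for Gal (45.8 and 31.3 TPM, distance 0.03), Nacad for Nppb (distance 0.0065) and Mt3 for Sst (6.92 and 3.81 TPM, distance 0.06). With 2 libraries this likeness rests on 2 values per gene.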

How the data were processed

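RNA from the pooled DRG neurons of 10 mice per group gave 1 stranded mRNA library per group. According to the study's methods and the submitters' processing notes, the authors demultiplexed paired-end reads with bcl2fastq, trimmed them with cutadapt and quantified them with kallisto on annotated transcripts of mm10. The methods state at least 60000000 reads per library. Each RefSeq transcript has 1 deposited TPM value per library, and read counts were not analysed here. TPM was summed over rows with the same symbol, 1 TPM was added before log2 ratios, and genes above 3 TPM in either pool entered counts. The SD for each gene came from the 500 such genes closest in mean log2 level, and it includes genes near 0 TPM in 1 pool. There was no test, since each group has 1 library. Positions, coding sequences and pairs of RefSeq and GENCODE identifiers came from GENCODE M21 (GRCm38, the assembly of mm10), where all 14 rows had a match. The settings used for kallisto, including its strand option, were not given in the sources used here.

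The genes and gene lists were chosen with earlier results of these data known. Named from each list were the 3 highest genes, any at least 2-fold apart, and the largest and smallest ratio, and for markers the highest genes and those at 0. Counts over the sympathetic markers are not reported here. Pcsk1, Pcsk2, Pam, Il31ra, Osmr, Mrgprd, Rbfox3, Prph, Elavl4, Chga, Ptprn, Syt7, Pvalb, Jun, Csf1, Sox11, Sprr1a, Cckbr, Npr1, Npr2 and the sums by Calca product were added after values were seen. Calculations used Python 3.11.15, numpy 2.4.6, pandas 2.3.3 and matplotlib 3.10.9 and were tested on simulated data.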

Additional observations from a re-analysis of the deposited data

How the results depend on the processing

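Other pseudocounts (0.1 and 0.5 TPM), the highest row of each gene, scaling by the median ratio of the pools (0.987) or to Hprt, TPM rescaled without rows for microRNAs and small nucleolar RNAs, and other filters were tried. The 4 negative ratios among detected genes kept their sign throughout, and no detected gene became 2-fold apart. The number of genes beyond the SD was 3, 4 with Hprt scaling (Calca added), 2 with a filter of 10 TPM (Sst not entered) or 200 closest genes (Nppb within), and 6 with no filter on low values, where Vip, Npy and Penk entered. The median log2 ratio ranged from -0.19 to -0.05. Detection counts were 5 to 10 of 10 for thresholds from 0 to 10 TPM. Ratios of Vip (0.79) and Npy (-1.21) moved with 0.1 TPM added. The ratio of Penk, which was below 3 TPM, rose from 0.95 to 1.46 with 0.1 TPM and 1.18 with 0.5 TPM, past 2-fold in both. No paired analysis was possible because each group has 1 library. Read numbers per gene were not analysed here, so counting error for the genes below 3 TPM is not given.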

Other observations

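Receptor genes for these peptides and for related peptides lay between 0 and 47.9 TPM. Of 30 receptor genes, 12 passed 3 TPM in each pool, with a median log2 ratio of -0.04 and none 2-fold apart. Of the 12, 2 exceeded the SD of genes of like abundance (Npr2 and Oprd1, both lower in the KLH pool), beside 17.0% of all genes. Npr2 is chiefly the receptor for C-type natriuretic peptide, the product of Nppc. Npr1, the main receptor for natriuretic peptide B, was at 0.14 and 0.092 TPM. The highest were Crcp, a CGRP receptor component, at 47.9 and 46.0 TPM, the µ-opioid receptor gene Oprm1 at 46.5 and 44.1 TPM, and Npy2r, a receptor for neuropeptide Y, at 43.2 and 41.6 TPM, the latter pair above Penk and Npy, the precursor genes of their peptides. Npy1r, another receptor for neuropeptide Y, had the largest log2 ratio at 0.13, and the δ-opioid receptor gene Oprd1, at 9.73 and 7.66 TPM, the smallest at -0.31. Vipr1, Galr3 and Sstr5 were listed at 0 in both pools. For CGRP itself, Calcrl was at 7.53 and 7.34 TPM and its partner Ramp1 at 0.23 and 0.11 TPM, both named after their values were seen.

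Of 10 genes for peptidases that can break neuropeptides down, 5 passed 3 TPM in each pool, with a median log2 ratio of -0.0053. Ide, insulin-degrading enzyme, was highest at 152.3 and 151.7 TPM, followed by Ece2 at 30.2 and 27.3 TPM and by Mme, which encodes neprilysin, at 18.3 and 20.1 TPM. Mme had the largest log2 ratio at 0.13 and Ece1 the smallest at -0.27, and none of the 5 exceeded the SD of genes of like abundance.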
